A study of Mus musculus with 17 samples.

Results

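The miR-15/16 family was examined in mouse kidneys after ischemia reperfusion injury (IRI). Its members were chosen by exact name, as the 6 mature miRs mmu-miR-15a, mmu-miR-15b, mmu-miR-16, mmu-miR-195, mmu-miR-322 and mmu-miR-497 of the 569 mouse miRs on the arrays. They were selected with earlier results of these arrays in view, so their IRI and sham values are given as a description. The members took part in the tests fitted across all miRs, and since their choice used the same values, how many of them passed is given only beside the share of all miRs and supports nothing.

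The 17 samples were total RNA of kidney from C57/BL6 mice aged 10 to 12 weeks, which the labels call female and the study's methods call male. Each sample was RNA pooled from 3 mice. One sample was from naive mice, without surgery. The IRI samples were from mice that underwent 30 minutes of warm ischemia, on the kidney of 1 side according to the methods, and the sham samples from mice that underwent the sham operation, with 1 pool in each arm per day. The days were 1, 3, 5 and 7, then 10 and 14, then 21 and 30. Both pools of a day shared an array, IRI in Cy3 and sham in Cy5, which gave 8 arrays, and the naive pool was alone, in Cy3, on a further array. No dye swap was made. A probe that reads brighter in Cy3 on all arrays and a miR that is higher in IRI on all days therefore cannot be told apart. Since every arm has 1 pool per day, the days serve as replicates, and the spread between mice of a day cannot be given. The channels of the day 5 array are headed A and B in place of IRI and sham, and were assigned by their dyes.

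miRs of this family bind messenger RNAs mainly through the seed, bases 2 to 8 from the 5′ end, and lower the translation and stability of their targets. Known targets include the messages of D-type and E-type cyclins, cyclin-dependent kinases, the kinase Wee1 and the survival factor Bcl2, and high levels of the family hold cultured cells in the G1 phase of the cell cycle. In the injured kidney, surviving tubular cells re-enter the cell cycle during repair. miR-15a and miR-16 lie together in a locus that is often deleted in human chronic lymphocytic leukemia, miR-195 is known for the arrest of heart muscle cell division after birth, and miR-322 is known for the exit of muscle precursor cells from the cycle.

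The target sequences of the 6 probes, as deposited with the scanner values, show what the members share and where a probe could read a relative. They are written 5′ to 3′ with the seed in capitals.
miR-15a: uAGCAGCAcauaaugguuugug
miR-15b: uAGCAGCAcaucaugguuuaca
miR-16: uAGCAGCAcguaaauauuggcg
miR-195: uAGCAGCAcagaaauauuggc
miR-322: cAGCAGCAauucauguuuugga
miR-497: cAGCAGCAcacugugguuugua

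All 6 members carried the same seed, and no other miR of the 569 on the array had it. In RefSeq (GRCm38.p6) 10 mature miR names have this seed. Counted from the 5′ end, miR-16 and miR-195 differed at 2 of 21 positions, and miR-15a and miR-15b at 4 of 22. The other pairs of members differed at 5 to 11 positions, and the nearest miR outside the family differed from a member at 8 to 10. Part of the signal of miR-195 could therefore come from miR-16, and of miR-15a from miR-15b, or the reverse, and this share was not measured.

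RefSeq places the members at 4 loci of GRCm38.p6. Mir15a (chr14:61632027-61632110, minus strand) and Mir16-1 (chr14:61631880-61631972, minus strand) lie in the span of Dleu2, a noncoding RNA gene. Mir15b (chr3:69009772-69009835, plus strand) and Mir16-2 (chr3:69009902-69009996, plus strand) lie in the span of Smc4, which encodes a condensin subunit. Mir497 (chr11:70234717-70234800, plus strand) and Mir195a (chr11:70235042-70235135, plus strand) are neighbours, and Mir322 (chrX:53054255-53054349, minus strand) lies in C430049B03Rik. The mature miR-16 of both loci is the same, so the array cannot tell them apart.

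Levels are given as normalized intensity, the background-corrected scanner intensity after normalization within and between arrays. Intensities of different probes are not set against each other. A miR was above background in a sample when its mean spot intensity was more than 3 median absolute deviations over the median of the 250 empty spots. That median was between 185.5 and 515.9 in the Cy3 channel of IRI, 510.9 in naive and between 33.0 and 43.9 in the Cy5 channel of sham. miR-15b, miR-16 and miR-195 were above background in all 17 samples, miR-15a in the 16 surgical samples and not in naive, miR-322 in all but the sham pool of day 30, and miR-497 in all 8 sham pools and 6 of 8 IRI pools. A miR entered the tests across all miRs when its normalized intensity reached 200 in at least 1 sample. This held for 162 miRs and for 5 of the 6 members, while miR-497 peaked at 172. The weakest member inside this limit, miR-322, peaked at 352. The 6 spots of a member had a median coefficient of variation of 7.05%, and the brightest single member spot read 16626, below the ceiling of the scanner.

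Of the family, miR-15b differed most between the arms. Its IRI levels on days 1 to 30 were 2873, 4487, 3187, 3800.2, 2708, 3575, 2365 and 2965. Its sham levels on the same days were 1158, 1351, 1447, 1595, 512, 1072, 1010.0 and 1122. Every IRI pool lay above every sham pool, a pattern that 2.47% of the 162 miRs showed. The mean log2 IRI/sham ratio was 1.53 ± 0.42 (SD, n = 8 arrays), or 2.88-fold, with a standard error of 0.14, and the ratio lay between 1.14 on day 5 and 2.40 on day 10. A ratio above 0 on all 8 arrays was found for 13.0% of the 162 miRs. The sham pool of day 10 was the lowest of its arm, and without that day the mean ratio was 1.40. The mean ratio of miR-15b ranked 4 among the 162 miRs from the highest on this scaling, just before miR-155 at 1.52. miR-155 lay above miR-15b with the authors' processed values (1.48 against 1.41). The same held with plain background subtraction (1.59 against 1.54) and median scaling of the channels (1.54 against 1.37).

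miR-16, encoded beside both miR-15a and miR-15b, had nearly the same level in both arms. Its IRI levels were 6474, 5174, 5947, 6214, 6148, 6314, 5025 and 6516 from day 1 to day 30. Its sham levels were 5926, 5917, 5934, 6174, 6240.1, 4848, 4861 and 5888. The ranges of the arms overlapped, 5025 to 6516 in IRI and 4848 to 6240.1 in sham. The mean log2 ratio was 0.06 ± 0.17 (SD, n = 8), and the daily values ran from -0.19 on day 3 to 0.38 on day 14. The direction of this small difference turned to -0.28 when every channel was scaled to its median only, where the median of the 162 miRs was -0.07. The ratio of miR-15b exceeded that of miR-16 on every array, by 1.46 ± 0.46 on the log2 scale (SD, n = 8) and by at least 1.14.

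miR-15a, encoded with miR-16 in the Dleu2 locus, was higher in IRI on 7 of 8 days. Its IRI levels were 1808, 1094, 945, 1148, 471, 1240.1, 885 and 758. Its sham levels were 766, 1397, 711, 698, 313, 542, 402 and 294. On day 3 the order was reversed, with a log2 ratio of -0.35, and the ranges of the arms overlapped. The mean log2 ratio was 0.79 ± 0.57 (SD, n = 8), 1.73-fold, with a standard error of 0.19, and 0.95 without day 3. The ratio of miR-15b was above that of miR-15a on each array, by 0.74 ± 0.79 on average, and by as little as 0.04 on day 30.

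miR-195 had similar levels in both arms on days 1 to 10 and separated afterwards. Its IRI levels were 3499, 2558, 2438, 2182, 1468, 2696, 2485 and 3227. Its sham levels were 2975, 2892, 2021, 1685, 1492, 1563, 1224 and 1139. From day 14 on, each IRI pool lay above each sham pool of those days. The share of all miRs with this pattern over those days was not counted, so nothing is read from it. The log2 ratio was -0.02 on day 10, then 0.79, 1.02 and 1.50 on the 3 later days. Its average over the 8 arrays was 0.50 ± 0.56 (SD, n = 8), with a standard error of 0.18, and 0.35 without day 30.

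**Figure D1:**
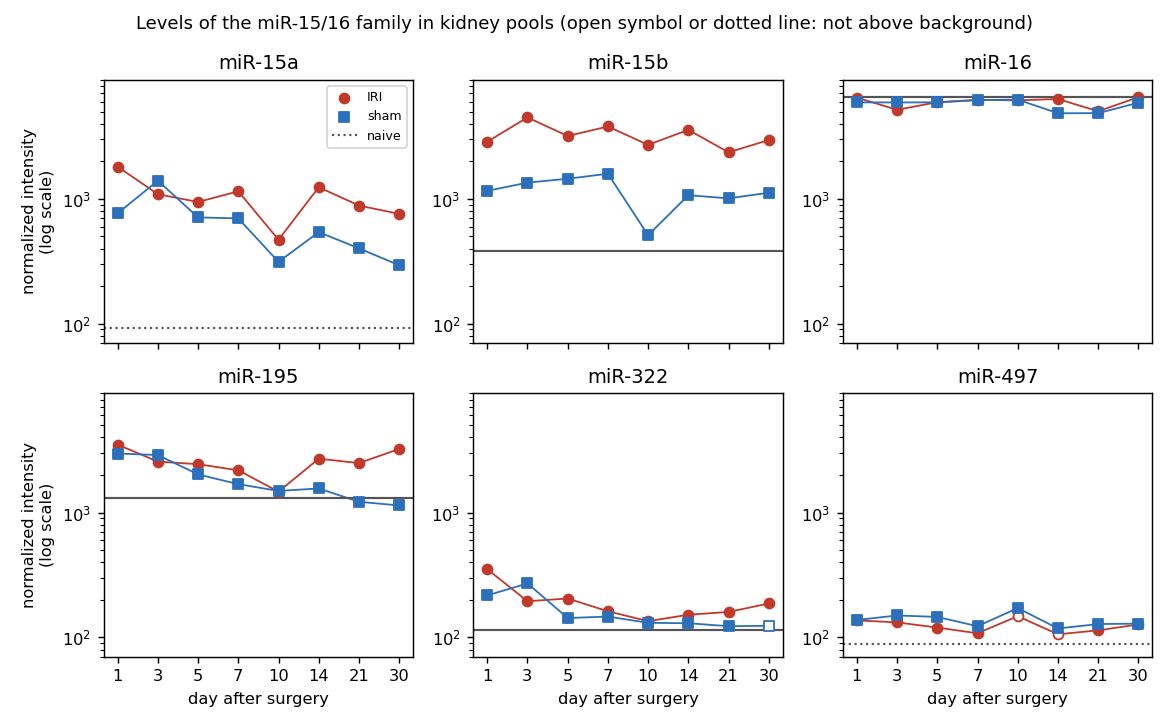
Normalized intensity (log scale) of the 6 family members by day after surgery, with 1 pool of 3 mice per point, IRI as red circles, sham as blue squares and the naive pool as a horizontal line. Open symbols and dotted lines mark values not above background. miR-15b shows no overlap between the arms, miR-16 overlaps throughout, and the sham level of miR-195 runs from 2975 on day 1 to 1139 on day 30.

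The remaining members were weak. miR-322, which shares its cluster with miR-503 and miR-351, had IRI levels of 352, 195, 205, 162, 135, 152, 160.2 and 187. Its sham levels were 217, 271, 143, 147, 131, 130.2, 123 and 124. The IRI pool was the higher one on 7 of 8 days, with a mean log2 ratio of 0.27 ± 0.38 (SD, n = 8), and the ranges of the arms overlapped. miR-497, the neighbour of miR-195, had IRI levels between 106 and 148 and sham levels between 118 and 172. Its log2 ratio was below 0 on all 8 arrays, at -0.16 ± 0.09 (SD, n = 8), as for 8.64% of the 162 miRs, but 2 of its IRI pools were not above background, and with the authors' values IRI was the higher arm on 2 days.

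In the tests of the mean ratio with limma, Benjamini-Hochberg adjustment and a threshold of 0.05, 2 of the 5 members that entered passed, miR-15a and miR-15b, both higher in IRI. With the pools unpaired, so that the array was no block, the standard error of miR-15a was 0.31 in place of 0.19 and it did not pass. miR-195 and miR-322 passed without day 3, at 0.59 and 0.37, and miR-497 passed as lower in IRI, at -0.16, without the filter on low values. Of all 162 miRs 36.4% passed, 18.5% higher and 17.9% lower. The rule chose the members with this contrast known, so nothing is read from their count. The median of the mean ratio was 0.50 over the 5 members and -0.04 over the 162 miRs. These are bulk tissue samples, in which fewer cells of a type and less RNA per cell cannot be told apart.

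**Figure D2:**
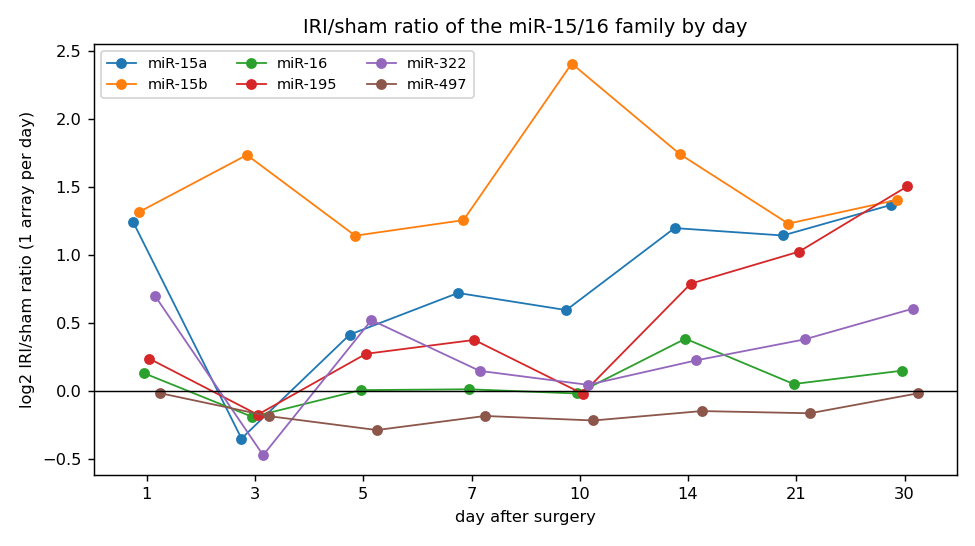
log2 IRI/sham ratio of each member by day after surgery, with 1 array per day and no replicate of a day. miR-15b lies above 0 on all 8 days and reaches 2.40 on day 10, miR-195 goes from -0.02 on day 10 to 1.50 on day 30, and 5 of 6 members lie below 0 on day 3.

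Day 3 had the most members with a ratio below 0. The ratio was below 0 for 5 of the 6 members on that day, and for 4 of the 5 that entered the tests, with miR-15b at 1.73 as the exception. Of the 162 miRs, 81 were below 0 on day 3, and their median ratio was -0.01. On day 10, 3 of the 6 members were below 0, miR-16, miR-195 and miR-497, as were 54.3% of the 162 miRs. On days 1, 5, 7, 14, 21 and 30 miR-497 was the only member below 0.

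Over the 8 arrays, Pearson's r of the log2 ratios was 0.81 between miR-15a and miR-16, 0.80 between miR-15a and miR-322, 0.76 between miR-15a and miR-195, and 0.55 to 0.59 for the pairs among miR-16, miR-195 and miR-322. Between miR-15b and these 4 members it lay between -0.53 and -0.09. These values describe 8 arrays that share dyes, a day for both arms and, within an array, the same RNA, and the members share sequence. For every member that entered the tests, the miR most like it was not a member. Of the 162 miRs, miR-152 (r = 0.96), miR-100 (r = 0.96) and miR-676 (r = 0.94) had the ratios most like those of miR-195 over the arrays. miR-181a (r = 0.84) was closest to miR-15a, miR-328 (r = 0.85) to miR-15b, miR-196b (r = 0.92) to miR-16 and miR-30a (r = 0.83) to miR-322.

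The sham level of miR-195 had a slope of -0.31 per doubling of the day on the log2 scale, with a standard error of 0.05, whereas its IRI level had a slope of -0.05 with a standard error of 0.09. Averaged over days 14, 21 and 30, the sham level of miR-195 was 1.00 lower on the log2 scale than over days 1, 3 and 5 (10.34 ± 0.24 against 11.34 ± 0.31, SD, n = 3 days each). Its IRI level averaged 11.44 ± 0.19 late and 11.45 ± 0.28 early. The widening ratio of miR-195, from 0.11 ± 0.25 early to 1.10 ± 0.36 late, came with a lower sham level in these averages. Between day 10, where the IRI pool was the lowest of its arm, and day 30 the order was different, with the IRI level of miR-195 higher by 1.14 and its sham level different by -0.39 on the log2 scale.

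The level of miR-15a differed between the late and the early days by -1.19 in sham and by -0.39 in IRI on the log2 scale, and its ratio averaged 0.43 ± 0.80 early and 1.23 ± 0.12 late. The ratio of miR-15b was about as large early (1.39 ± 0.31) as late (1.46 ± 0.26). The late levels of miR-322 differed from its early levels by -0.70 in sham and by -0.54 in IRI. miR-16 differed between late and early days by -0.19 in sham and by 0.02 in IRI.

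**Figure D3:**
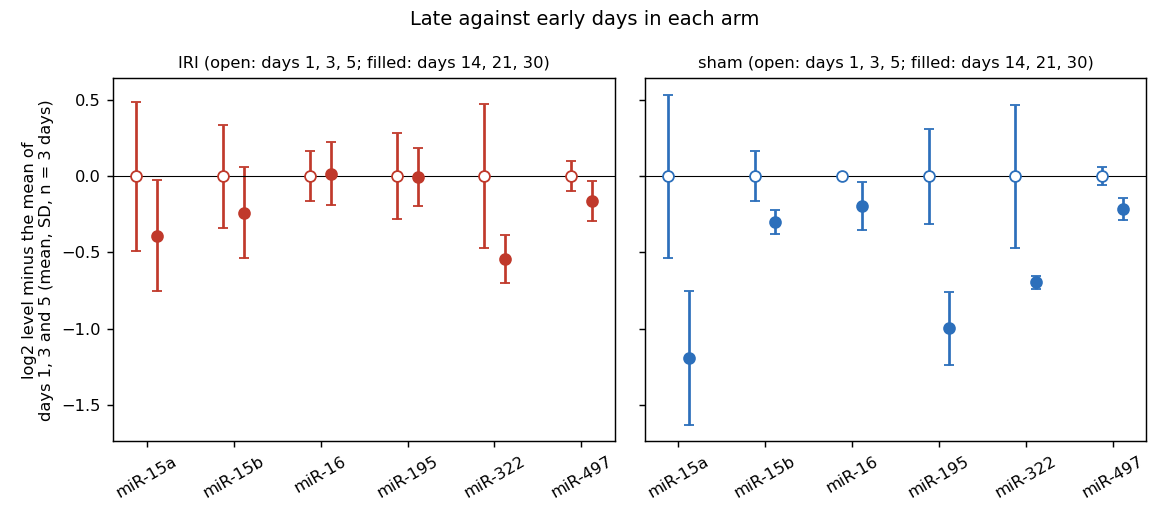
Mean log2 level of each member on days 14, 21 and 30 (filled) relative to its mean on days 1, 3 and 5 (open), in IRI (left) and sham (right), with bars for the SD over 3 days. In sham, miR-15a and miR-195 lie 1.19 and 1.00 lower on the late days, whereas the IRI means of miR-195 are 11.45 early and 11.44 late.

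When slopes over log2(day) were fitted with limma across the 162 miRs, the sham level of 1 of the 5 members that entered passed, miR-195, against 1.23% of all 162 miRs. Its slope was negative, and 0.617% of the 162 passed with a negative and 0.617% with a positive slope. Its slope lay between -0.37 and -0.28 when each day was left out, and it did not pass without day 5, 14, 21 or 30, with median scaling, with an intensity trend and robust variances, or with day in place of log2(day). miR-322 had a sham slope of -0.22, which passed at -0.51 with plain background subtraction and was -0.05 with a floor of 200. For the sham slope, 3 members and 17 of all 162 miRs reached an unadjusted p under 0.05 (limma). No IRI level of a member passed, against 8.64% of all 162 (4.32% rising and 4.32% falling). An unadjusted p under 0.05 was reached by 1 member, miR-322, and by 39 of all 162. The IRI slope of miR-322 was -0.20 with all days, passed at -0.28 without day 30, and was -0.06 without day 1. No slope of a member's log2 ratio passed, against 2.47% of all 162 (1.23% in each direction). Here an unadjusted p under 0.05 was reached by 1 member and by 34 of all 162. The ratio slope of miR-195, 0.26 with all days, passed at 0.46 without day 1 and also with day in place of log2(day), at 0.052 per day. That of miR-15a, 0.13 with all days, passed at 0.47 without day 1 and was 0.04 without day 3.

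**Figure D4:**
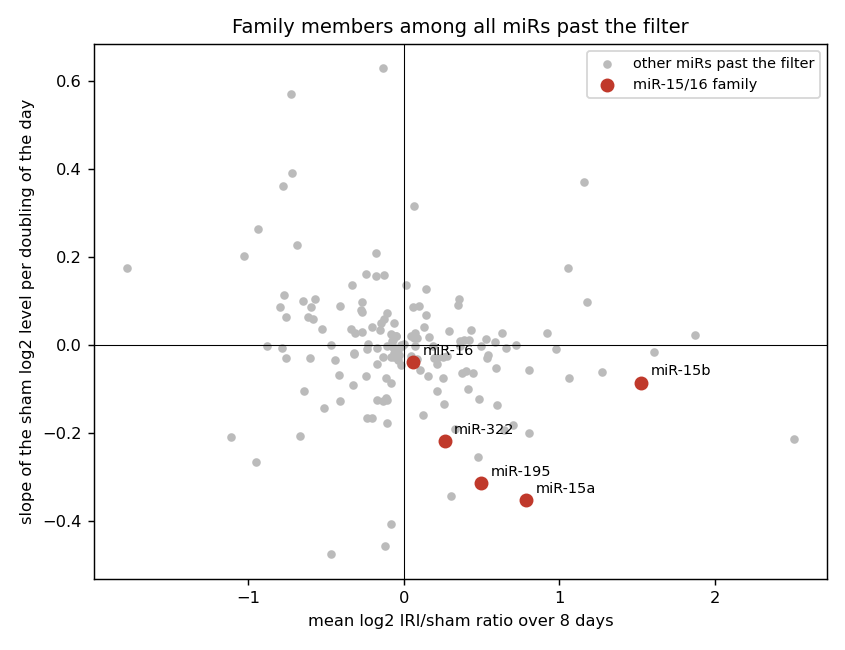
Each of the 162 miRs that entered the tests by its mean log2 IRI/sham ratio (x axis) and the slope of its sham log2 level per doubling of the day (y axis), with 5 family members in red. miR-15b lies far to the right at 1.53 with a sham slope of -0.09, and miR-15a, miR-195 and miR-322 lie lower, with sham slopes of -0.35, -0.31 and -0.22.

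The naive pool was 1 sample on its own array, so levels against it have no replicate and no test, and they moved with the scaling of the arrays. The naive array had little signal over its empty spots. Its miR-16 spots averaged 1037 before correction, against 9922 to 16177 in the IRI pools. Its miR-15b spots averaged 612, against a median of 511 for the empty spots and a background limit of 563. Sham against naive also crosses dyes, Cy5 against Cy3, which IRI against naive does not. The naive level of miR-15b was 384, below all 16 surgical pools. IRI was 8.29-fold and sham 2.88-fold above it, on the mean of the log2 levels. The log2 difference of IRI from naive was 3.05 ± 0.29 (SD, n = 8 days), and between 2.09 and 3.36 under the other scalings. That of sham was 1.53, and 0.80 with the authors' values, 0.73 with median scaling and 1.81 with plain background subtraction. With the authors' values naive was at 695 and the lowest sham pool at 519, so that naive was not below every pool. miR-15a was not above background in naive, at 92.2, where its spots averaged 562.8 against a limit of 563.3. Against the lowest naive level above background, its IRI and sham levels were 10.6-fold and 6.13-fold higher on this scaling. With the authors' processed values its IRI level was above naive by 2.25 on the log2 scale, after median scaling by 0.81, and with plain background subtraction by 6.12. Its sham level was above naive by 1.47, 0.05 and 5.34 in the same order. These differences are from a naive value not above background. They show how far the scaling moved them and do not measure the size of an excess. For comparison, all IRI levels lay above naive for 41.4% and all sham levels for 38.9% of the 162 miRs.

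miR-195 had a naive level of 1307, below all 8 IRI pools and below 6 of 8 sham pools, the sham pools of days 21 and 30 being lower. Its IRI levels averaged 1.91-fold above naive, and the log2 difference of 0.93 was between 0.41 and 1.18 under the other scalings. miR-16 stood at 6542 in naive, above all surgical pools, with IRI lower by 0.14 on the log2 scale, but the direction turned with the authors' values (0.20) and with median scaling (1.19). miR-322 was at 114 and miR-497 at 88.2 in naive. The IRI level of miR-322 was above naive by 0.70 on the log2 scale, and by 1.50 with plain background subtraction, a direction that turned with the authors' values (-0.06) and with median scaling (-1.98). miR-497 was above background in 6 of 8 IRI pools and not in naive, so its fold over naive has no measured bound. Its mean IRI level was 1.33-fold above the lowest naive level above background on this scaling. The log2 difference of IRI from naive turned with median scaling (-2.43, against 2.24 with plain subtraction).

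The other strands and cluster neighbours of the family were weak. Of 17 names, 12 were on the array and none reached the intensity needed for the tests. miR-322*, the other strand of miR-322, was above background in all 17 samples, with levels between 127 and 168 in IRI and between 132 and 178 in sham. miR-351 was above background in 15 samples, with medians of 142 in IRI and 142 in sham. miR-503 was above background in none.

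miR-103 and miR-107 carry a seed related to that of the family and are also known to act on cyclins and their kinases. Both were lower in IRI. miR-103 ranged from 732 to 1548 with a median of 981 in IRI, and from 1051 to 2777 with a median of 1558 in sham. Its mean log2 ratio was -0.58 with a standard error of 0.15 (limma, adjusted p = 0.0211, lower on 7 of 8 days). miR-107 had a mean log2 ratio of -0.61 with a standard error of 0.16 (limma, adjusted p = 0.0198, lower on 7 of 8 days). Whether the probes of miR-103 and miR-107 read each other's target was not measured.

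Among 30 other miRs known for the cell cycle, 29 were on the array and 23 entered the tests. Of these 9 were higher and 6 lower in IRI, where 18.5% of the 162 miRs were higher and 17.9% lower, and the median of their mean ratios was 0.13. One of the 9, miR-106a, reached the intensity for the tests only in IRI (up to 237, against 159.7 in sham). The split was 6 higher and 2 lower of 21 with the authors' values, 7 and 1 of 22 with plain background subtraction, and 5 and 8 of 23 with median scaling, and miR-106a did not enter the first and the second of these. miR-25, of the miR-106b cluster, a paralog of the miR-17 cluster known to promote passage into S phase, had IRI levels from 907 to 1779.8 and sham levels from 325 to 729, without overlap. Its mean log2 ratio was 1.18 with a standard error of 0.12 (limma, adjusted p = 0.000345, higher on 8 of 8 days). miR-20a, of the miR-17 cluster, was higher by 0.81 with a standard error of 0.14 (limma, adjusted p = 0.00566, higher on 8 of 8 days). let-7b and let-7c, which restrain cyclins and Ras, were the lowest of those that passed. Their mean log2 ratios were -0.80 and -0.77, with standard errors of 0.20 and 0.20 (limma, adjusted p = 0.0198 and 0.0231). These values moved with the scaling, for let-7b to -0.43 with the authors' values, -0.42 with plain background subtraction and -1.37 with median scaling. For let-7c they were -0.39, -0.38 and -1.35, and it did not pass with plain subtraction. Whether the probes of let-7b and let-7c read each other's target was not measured.

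Markers of the cells a kidney sample can hold were read with the same tests of the mean ratio. Of 5 kidney epithelium miRs, 4 were above background in all samples, and miR-192, miR-194 and miR-200b were lower in IRI, while the mean log2 ratio of miR-30a was -0.32. miR-200b did not pass with the authors' values (-0.31) or plain subtraction (-0.28), and miR-30a passed with the authors' values (-0.44). miR-204, above background in 6 samples, did not enter the tests and had a mean log2 ratio of 0.29, above 0 on 6 of 8 days. All 3 leukocyte miRs that entered the tests, of 5 on the array, were higher in IRI, with mean log2 ratios of 1.52 for miR-155, 0.98 for miR-223 and 0.92 for miR-150. miR-223 was above background in 7 of 8 IRI and 1 of 8 sham pools, entered the tests through its IRI levels, and had a ratio of 2.63 with plain subtraction. The defining miR-142-3p and miR-142-5p were above background in 2 samples each. The summed level of the 5 leukocyte miRs was between 1447 and 3266 in IRI, between 819.9 and 1177 in sham and 632 in naive, so that, like miR-15b, it did not overlap between the arms. Its part in the values of miR-15b and miR-15a was not tested.

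The log2 ratios of miR-451 and miR-486 fell with slopes of -0.79 and -0.59 per doubling of the day, and both passed. Neither passed without day 21, without day 30 or without the filter on low values, nor did miR-451 with no block or miR-486 without day 3, 7 or 14. miR-144 was above background in 1 sample. The summed level of the 3 was 1209 in IRI and 497 in sham on day 1, and 402 in IRI and 1491 in sham on day 30. In sham it was 837, 986 and 1491 on days 14, 21 and 30, where miR-195 and miR-15a were low, but also 834 on day 7, and on day 10, where miR-15a was low too, it was 395, the lowest of the arm. The part of this in the members' values was not tested. Of 5 fibroblast and smooth muscle miRs, miR-199a-3p, miR-199a-5p and miR-214 were higher in IRI, while the mean log2 ratios of miR-143 and miR-145 were -0.13 and -0.13. miR-199a-5p reached the intensity for the tests only in IRI (up to 244, against 137 in sham), did not enter them with the authors' values or plain subtraction, and did not pass with median scaling. The summed level of the 5 was between 5660 and 14674 in IRI and between 4293 and 12912 in sham. Of the endothelial pair, miR-126-3p entered the tests and did not pass, with a mean log2 ratio of -0.03.

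**Figure D5:**
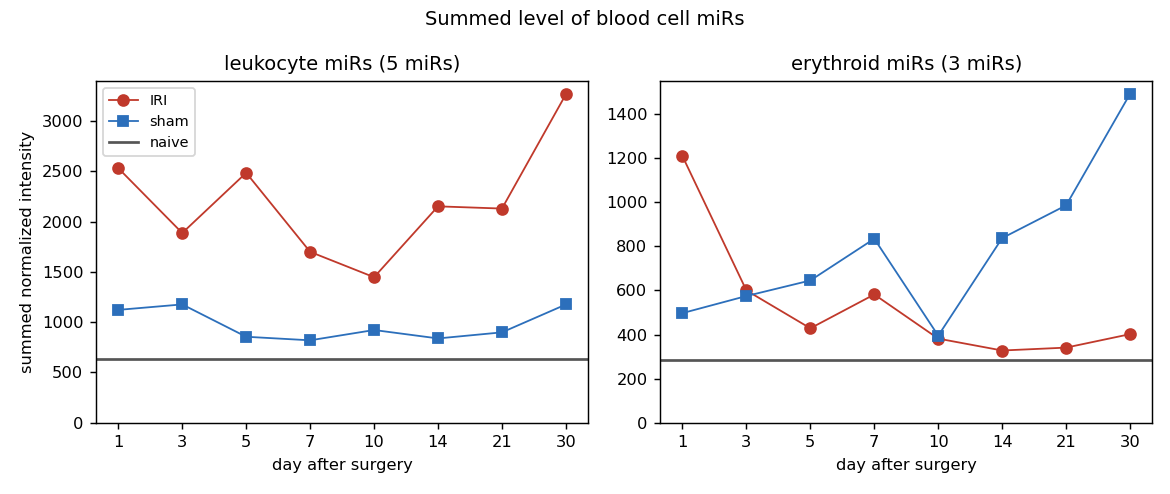
Summed normalized intensity of 5 leukocyte miRs (left) and 3 erythroid miRs (right) by day after surgery, with 1 pool per point, IRI as red circles, sham as blue squares and naive as a grey line. The leukocyte sum is higher in IRI on every day, and the erythroid sum is 1209 in IRI against 497 in sham on day 1 and 402 against 1491 on day 30.

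The sham pool of day 30 also stood apart by miR-122, a liver miR, at 3092 against at most 123 in the other 16 samples. Without that day the mean ratio of miR-15b was 1.54, of miR-15a 0.71 and of miR-195 0.35, and the sham slope of miR-195 was again -0.31 but no longer passed.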

How the data were processed

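The authors deposited, for 9 arrays, an uncorrected scanner intensity per spot, and a table of processed intensity per miR and sample. The steps behind that table were not given in the sources used. Each processed column followed its own channel, with r of at least 0.981 on the linear scale against at most 0.956 for the other channel. On day 5 these were 0.998 and 0.953 for IRI and 0.999 and 0.941 for sham.

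Spot intensities were corrected with normexp (offset 50) per channel and the 6 spots of a miR averaged. The channels of the 8 arrays with both pools were normalized by loess within each array, with control probes at weight 0. The naive array had 1 channel and no loess. Quantile normalization between arrays then took the mean log2 intensities of the 8 arrays together with the naive log2 values. Mean ratios and slopes over log2(day) were fitted with limma 3.58.1 in R 4.3.3 over 162 miRs and adjusted by Benjamini-Hochberg, after the scripts had been tested on simulated data. The ratio makes the array a block. The miRs named are the 6 members, their other strands and neighbours, miRs of related seed, the miRs with the ratios most like theirs, the 2 highest and 2 lowest of the cell cycle list, and the markers. The members and lists were chosen with earlier results of these data known. Where nothing else is stated, n is the number of days, and the spread covers both error and any change over the days. Pairing comes from the array that both pools of a day shared. Alternatives were the authors' values, other background correction, scaling, filters, spot summary and variance model, a floor, no replicate block, day in place of log2(day), day 10 left out as in the study, and each day left out. The number of arrays limits the precision. Sequences are from the deposited target column and loci from RefSeq.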

Additional observations from a re-analysis of the deposited data

Results flagged for a closer look

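Of 18 sets of 8 values (IRI level, sham level and ratio of each member), 3 held a value that stood far from the others by Dixon's test. Chance gives about 1 in 20 for independent sets of replicate values. These sets are different days, each ratio is built from its IRI and sham levels, and the values were known beforehand. The 3 are therefore not set against that rate. The day 10 log2 ratio of miR-15b, 2.40, was the highest, with a gap of 0.527 of the range. The sham log2 level of miR-15b was lowest on day 10, where the level was 512, with a gap of 0.598 of the range. The IRI log2 level of miR-322 was highest on day 1, where the level was 352, with a gap of 0.566 of the range. The first pair of values come from the same sham pool.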

How the results depend on the processing

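Of 408 values of single members under the alternatives, 384 moved by less than their spread and 24 by more. The mean ratio of miR-15b ranged from 1.37 to 1.58, that of miR-15a from 0.71 to 0.95, that of miR-195 from 0.33 to 0.59 and that of miR-322 from 0.04 to 0.52. These values were known when the members were chosen, so their range supports nothing about the family. Median scaling put all 569 miRs past the intensity limit of 200, so passing was judged among 569 there. It put the median of the mean ratio over all 569 miRs at -0.26. Unless another number is given, the counts of passing miRs that follow are of 162 tested. For the mean ratio 59 passed, 100 of 569 without a filter on low values and 30 with a floor of 200. With no replicate block 51 passed, and 26 to 59 when each day was left out. For the ratio slope 4 passed, 7 of 129 with the authors' values, 14 of 569 with median scaling and 2 with no replicate block. Without a filter 0 of 569 passed (limma, 51 at an unadjusted p under 0.05). With day in place of log2(day) 14 passed, and 0 to 19 when each day was left out. For the IRI slope 14 passed, 22 without day 10, 9 of 122 with plain subtraction and 2 with the floor. With median scaling 6 of 569 passed, without a filter 2 of 569, and 2 to 22 when each day was left out. For the sham slope 2 passed, 4 without day 10, 5 of 122 with plain subtraction and 1 of 569 without a filter. With an intensity trend and robust variances 1 passed, with the floor 1, and 0 to 4 when each day was left out. All IRI levels were above naive for 5 of 6 members, and for 3 with the authors' values and 3 with median scaling. The cause of these shifts was not tested. The limits are 1 pool per arm and day, dyes that were not swapped and 1 naive pool. miR-322 and miR-497 lay close to the empty spots, and the mean ratio of miR-322 was 0.27 with normexp and 0.52 with plain subtraction.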
